A study of Mus musculus with 6 samples.

Results

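The PAQR family (progestin and adipoQ receptors) was described here in mouse dermal fibroblasts that had been held in an adipogenic medium, with and without Nelfb. Its members were taken by name as Adipor1, Adipor2, Mmd, Mmd2, Paqr3, Paqr4, Paqr5, Paqr7, Paqr8 and Paqr9. Of these 10 genes, 9 had a row among the 17924 genes of the deposited table. Paqr5 had none, so its level was not analysed, and it enters the search of start site sequences only. The family was selected on the values of Mmd2, which was lost in the Nelfb-/- libraries, so these are given as a description and were not tested. The other 8 members came in by family membership and carry the p of a test fitted over all genes.

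RNA-seq was performed on fibroblasts from the dorsal dermis of newborn mice (postnatal day 0, C57BL/6J background) after 14 days in adipocyte differentiation medium, in 3 biological replicates a group. Nelfb-/- cells were Nelfb fl/fl with Pdgfra-Cre+, and CTL cells were Nelfb fl/wt or wt/wt with Pdgfra-Cre+, so both groups carry the Cre and a CTL library may hold 1 floxed allele. Pdgfra-Cre deletes in mesenchymal cells that have expressed Pdgfra, and whether other cells of the culture kept the gene was not measured. Nelfb encodes a subunit of the negative elongation factor, which holds RNA polymerase II paused just downstream of start sites. Values are in CPM (a gene's share of all reads in the table, per 1e+06), with no correction for gene length, at depths of 17.2 to 29.4 M reads a library (M, 1e+06). The floor of detection was set at 3 reads, or 0.102 to 0.175 CPM by library. Where 3 values stand in a row they belong to replicates 1, 2 and 3, in this order.

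PAQR proteins are multi-pass membrane proteins whose fold is shared with alkaline ceramidases, enzymes that cut ceramide into sphingosine and a fatty acid. Adipor1 and Adipor2 are the receptors of adiponectin, a hormone secreted by adipocytes, and are known for acting through AMP-activated kinase and PPAR alpha and for a ceramidase activity of their own. Paqr7, Paqr8, Paqr9 and Paqr5 are membrane progestin receptors. Paqr3, Mmd and Mmd2 are known as proteins of the Golgi: Paqr3 holds the Scap-SREBP complex there, whereas Mmd and Mmd2 have been tied to Ras signalling at this membrane. Paqr4 has been described as a Golgi protein that acts on ceramide.

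Nelfb itself gave 17.3, 19.6 and 22.3 CPM in the CTL libraries, and 5.50, 3.90 and 5.55 CPM in those of Nelfb-/- cells. The groups lay apart, and the log2 fold change came to -1.99 (SE 0.22, limma, adjusted p = 0.0050). Within both groups 1 library stood apart. The first principal component (59.9% of the variance) separated the groups. On the second (27.7%), CTL replicate 3 (-74.9) and Nelfb-/- replicate 1 (79.2) lay at opposite ends, with the other libraries between them (-29.6 to 21.9). Values without CTL replicate 3 or Nelfb-/- replicate 1 are therefore given beside the results that rest on them. The libraries of both groups were labelled as adipocytes. The study reports that CTL cells accumulated lipid in this medium, whereas cells without Nelfb showed no lipid staining and had less Pparg and perilipin protein. It reads this as impaired adipocyte differentiation. The label is thus not taken to mean that the Nelfb-/- cells had become adipocytes. All 14 adipocyte markers listed were present in every library. They summed to 28273 to 45779 CPM in CTL and to 20416 to 29219 CPM in Nelfb-/- cells.

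Markers of other cell types of the skin were also read. The threshold used throughout is an adjusted p of 0.05 or less (limma over all genes) with 2-fold or more. The 12 macrophage markers, none of which was at 0, summed to 245 to 871 CPM in CTL and to 2382 to 7499 CPM in Nelfb-/- libraries, with 11 of 12 past the threshold upwards. The 10 precursor and fibroblast markers summed to 2626 to 11940 CPM in CTL, the highest in replicate 3, and to 6413 to 25711 CPM in Nelfb-/- cells, the lowest in replicate 1, and 2 of 9 tested passed upwards. Past the threshold upwards were also 6 of 7 melanocyte markers (Tyr was at 0 in every CTL library), 3 of 6 Schwann cell markers with 1 downwards, 4 of 5 skeletal muscle markers, 1 of 5 endothelial markers and 2 of 5 keratinocyte markers. Of the adipocyte markers 2 of 14 passed downwards, as did 3 of 7 thermogenic adipocyte markers, while Ucp1 had no row. Over all genes tested 3.64% passed downwards and 7.58% upwards, so nothing is read from the smaller of these counts. In such bulk samples fewer cells of a type and less RNA per cell cannot be told apart. The part of these cell types in the values below was not tested, also where marker sums are given beside a gene.

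The sequences just upstream of the members' start sites are shown for Mmd2, the gene that is lost, for Mmd, its paralog, which was not lost, and for the members that passed the threshold, Paqr4 and Paqr7. They are the 250 bases before the start on GRCm38.p6 from RefSeq, read 5' to 3' on the strand of the gene, and capitals mark GC boxes (GGGCGG on either strand, the core letters bound by SP1 and its relatives). Mmd2 lies on the minus strand (chr5:142608753-142609002), Mmd on the plus strand (chr11:90249226-90249475), Paqr4 on the minus strand (chr17:23740331-23740580) and Paqr7 on the plus strand with 2 listed starts (chr4:134496511-134496760 and chr4:134496791-134497040). GENCODE places the outermost start of each of these genes further upstream, so that parts of the stretches shown may be transcribed.
Mmd2: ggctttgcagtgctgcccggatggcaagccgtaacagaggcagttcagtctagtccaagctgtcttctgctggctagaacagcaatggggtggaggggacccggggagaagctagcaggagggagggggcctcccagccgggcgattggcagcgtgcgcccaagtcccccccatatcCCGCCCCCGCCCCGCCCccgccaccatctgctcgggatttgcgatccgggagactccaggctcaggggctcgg
Mmd: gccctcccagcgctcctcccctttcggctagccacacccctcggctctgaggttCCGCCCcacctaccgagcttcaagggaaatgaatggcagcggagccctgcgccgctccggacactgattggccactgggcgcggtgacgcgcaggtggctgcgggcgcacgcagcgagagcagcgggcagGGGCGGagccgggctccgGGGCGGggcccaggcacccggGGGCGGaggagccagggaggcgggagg
Paqr4: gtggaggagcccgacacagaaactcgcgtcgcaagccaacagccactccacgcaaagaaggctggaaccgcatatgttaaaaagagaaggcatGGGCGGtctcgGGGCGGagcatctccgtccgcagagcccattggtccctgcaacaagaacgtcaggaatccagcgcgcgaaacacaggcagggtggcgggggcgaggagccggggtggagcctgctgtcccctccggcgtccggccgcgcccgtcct
Paqr7, upstream start: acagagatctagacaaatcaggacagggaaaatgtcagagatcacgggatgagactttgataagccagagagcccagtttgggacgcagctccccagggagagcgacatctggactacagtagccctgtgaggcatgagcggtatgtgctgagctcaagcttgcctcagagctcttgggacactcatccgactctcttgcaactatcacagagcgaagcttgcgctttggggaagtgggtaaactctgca
Paqr7, downstream start: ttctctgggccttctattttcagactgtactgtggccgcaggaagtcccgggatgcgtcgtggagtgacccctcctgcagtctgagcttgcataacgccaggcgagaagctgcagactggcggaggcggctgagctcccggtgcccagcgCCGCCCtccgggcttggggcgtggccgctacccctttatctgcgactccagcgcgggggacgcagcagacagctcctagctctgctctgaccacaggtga

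Mmd2 has 3 GC boxes in a single run at -73, -67 and -62, the last pair of which overlap by 1 base, and 1 CCAAT box at -106 on the opposite strand. Mmd has 5 GC boxes, 1 of them at 36 bases past the start, and 1 CCAAT box at -130. Both upstream stretches are rich in G and C, at 67.2% for Mmd2 and 74.4% for Mmd. Paqr4 has 2 GC boxes and 1 CCAAT box. The upstream start of Paqr7 holds none of the motifs searched, and its downstream start has 1 GC box and a C/EBP site (TTGCNNAA) at -163.

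The set of RefSeq promoters used here held 12 starts for 9 of the 10 members, and none for Paqr9. In the 300 bases from 250 before to 50 after each start, 10 of the 12 held GGGCGG and 5 held CCAAT. The shares among the 32851 mouse promoters searched in the same way were 35.7% and 37.4%. Counted by gene, 8 of 9 held GGGCGG and 5 of 9 held CCAAT, against 38.2% and 41.1% of all genes searched. The last 30 bases of the windows of Adipor2 and of the upstream start of Paqr8 lay in no GENCODE transcript of the gene. The 12 windows were 47.7% to 76.7% G or C. A cyclic AMP response element (TGACGTCA) was matched in Paqr3 alone, and 1.79% of all promoters hold it. AGGTCA, the single site of nuclear receptors such as PPAR gamma, was matched in Paqr8 alone (16.3% of all promoters), and the C/EBP letters in Paqr7 alone (10.8%). The TATA box letters TATAAA were in none of the 12 and in 13.6% of all promoters. The E-box CACGTG was likewise in none (7.15% of all), as was the DR1 site of PPAR gamma, a direct repeat of AGGTCA with 1 base between (0.0396% of all). Both strands were searched. A match describes the letters of the window only.

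Mmd2 (ENSMUSG00000039533, chromosome 5 from 142562358 to 142608800, minus strand, 7 exons), also named Paqr10, was present in all CTL libraries and was almost absent from Nelfb-/- libraries. The CTL libraries held 13.5, 12.9 and 11.6 CPM, which corresponds to 299, 277 and 341 reads. The Nelfb-/- libraries held 0, 0.0582 and 0 CPM, which is 0, 1 and 0 reads. The CTL libraries lay close together (12.7 ± 0.971 CPM, SD, n = 3), including replicate 3, which departed from its group at other members. All Nelfb-/- libraries lay at or under the floor of 3 reads. Set against that floor in each library (mean 0.146 CPM), Mmd2 was at least 86.5-fold lower in Nelfb-/- cells. No other gene of the deposited table overlapped it.

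Of 7 other genes of the table within 250 kb of Mmd2, 6 were tested and 0 passed the threshold with limma, while 2 had an unadjusted p under 0.05. Over all genes tested 11.2% passed, so nothing particular to this region is read from a count over 6 genes. Radil, the nearest, lies 11.3 kb from Mmd2 and gave 5.95, 7.70 and 10.6 CPM in the CTL libraries, and 7.63, 10.4 and 10.4 CPM in those of Nelfb-/- cells. The groups of Radil overlapped (log2 fold change 0.25, SE 0.27, limma, adjusted p = 0.56). On the other side Wipi2, which acts in autophagosome formation, starts 18.9 kb away and gave 109, 109 and 91.0 CPM in the CTL libraries, and 125, 142 and 135 CPM in those of Nelfb-/- cells. Its groups lay apart, in the opposite direction to Mmd2, with the log2 fold change at 0.39 (SE 0.14, limma, adjusted p = 0.10).

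The more distant neighbours were Ap5z1 (log2 fold change 0.42, limma, adjusted p = 0.41), Foxk1 (0.11, adjusted p = 0.69), Tnrc18 (0.63, adjusted p = 0.11) and the processed pseudogene Gm15770 (-1.03, adjusted p = 0.21). In all of these the groups overlapped. Slc29a4 was at or under 0.408 CPM in every library and was not tested.

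**Figure D1:**
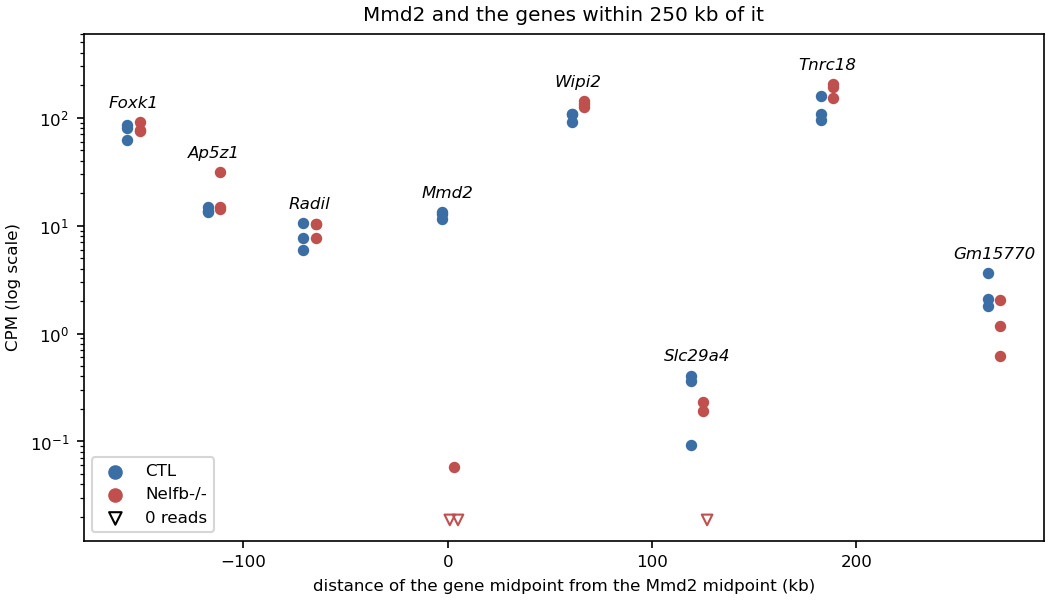
Level in CPM (log scale) of Mmd2 and of the 7 genes of the table within 250 kb, against the distance of each gene's midpoint from that of Mmd2 in kb. Points are libraries, 3 CTL (blue) and 3 Nelfb-/- (red), and open triangles mark 0 reads. The Nelfb-/- points leave the CTL range downwards at Mmd2 in all libraries, while of the 6 neighbours that were tested Wipi2 alone has groups that do not overlap, and these lie the other way.

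The genes most like Mmd2 were found by Pearson's r of their log2 values over the 6 libraries. These were Acy3 (r = 0.998), an aminoacylase, Gm10036 (0.998), Ndufa6 (0.997), a subunit of respiratory complex I, Adhfe1 (0.997), a mitochondrial dehydrogenase, and Poln (0.996), a DNA polymerase. They have in common with Mmd2 a narrow spread within each group, for instance in Acy3, at 20.3, 18.5 and 16.5 CPM in the CTL libraries and 2.66, 3.96 and 2.85 CPM in those of Nelfb-/- cells. Their fall was smaller than that of Mmd2, with log2 fold changes of -2.54 for Acy3 and -0.96 for Gm10036. Of 16251 other genes 39 had an r over 0.99, and with 6 libraries in 2 groups such an r needs only a step between the groups and a small spread within them.

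Mmd (ENSMUSG00000003948, chromosome 11 from 90249456 to 90278589, plus strand), named for its rise as monocytes become macrophages, was not lost. It gave 239, 214 and 183 CPM in the CTL libraries, and 138, 443 and 444 CPM in those of Nelfb-/- cells. Nelfb-/- replicates 2 and 3 lay above every CTL library and replicate 1 lay below them all, so that the groups overlapped. The fitted log2 fold change stood at 0.51 (SE 0.46, 95% interval -0.60 to 1.62, limma, adjusted p = 0.49). Without Nelfb-/- replicate 1 it was 1.07 (limma, adjusted p = 0.017), and the call of Mmd thus turns on this library. Nelfb-/- replicate 1 was also the library with the most macrophage marker reads (7499 CPM) and with the fewest fibroblast marker reads among Nelfb-/- libraries (6413 CPM). Mmd shares 1800 bases with Gm45716 on the same strand, whose level was 2.98 to 9.34 CPM in CTL and 3.22 to 12.6 CPM in Nelfb-/- cells, with the lowest Nelfb-/- value in replicate 1 as well.

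**Figure D2:**
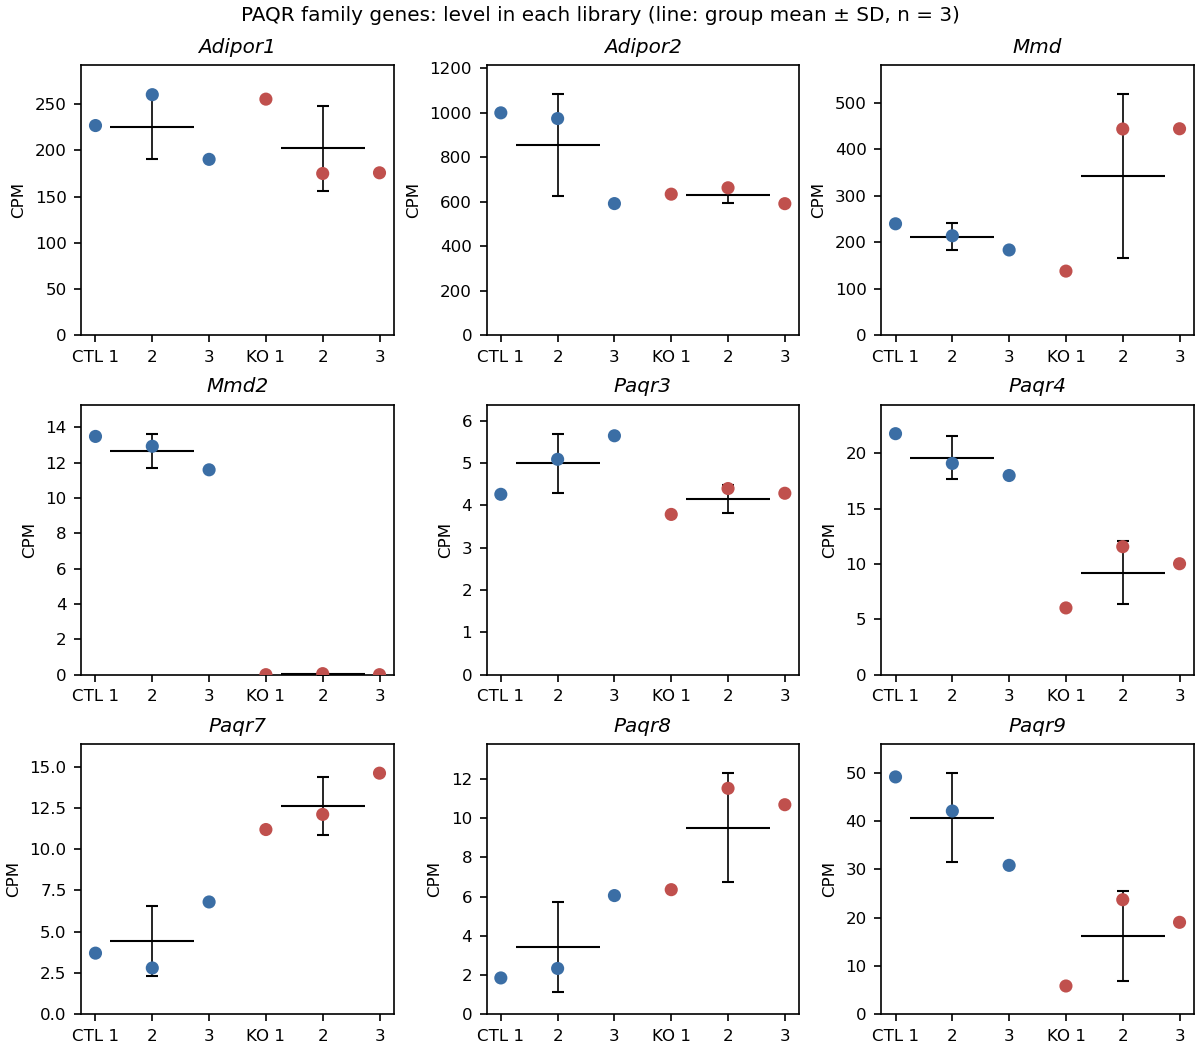
Level in CPM of the 9 family members measured, in CTL replicates 1 to 3 (blue) and Nelfb-/- replicates 1 to 3 (red), each panel on its own linear axis from 0. Horizontal lines and bars give the group mean and SD (n = 3). Mmd2 drops from 11.6 to 13.5 CPM to the floor, Paqr4 and Paqr9 lie lower and Paqr7 and Paqr8 higher in Nelfb-/- cells without overlap, and the groups of the other members overlap.

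Of the 8 members other than Mmd2, 1 (Paqr4) passed the threshold downwards and 1 (Paqr7) passed it upwards. Over all 16252 genes tested, 3.64% passed downwards and 7.58% upwards (592 and 1232 genes, together 11.2%). The Nelfb-/- libraries lay below all CTL libraries at Paqr4 and Paqr9 and above them at Paqr7 and Paqr8, and over all genes tested this held for 16.1% downwards and 22.0% upwards, or 38.1% in all. These counts turn on single libraries and on the test. Without CTL replicate 1, CTL replicate 2, Nelfb-/- replicate 2 or Nelfb-/- replicate 3, 0 of the 8 passed, while leaving out each library in turn gave 144 to 771 genes downwards and 303 to 1683 upwards. An analysis of variance without moderation, nearer to the test named in the study's methods, also ended both calls (adjusted p = 0.10 for Paqr4 and 0.092 for Paqr7). The median log2 fold change of these 8 members was -0.21, against 0.068 over all genes tested.

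Neither adiponectin receptor passed the threshold. Adipor1 (ENSMUSG00000026457, chromosome 1 from 134415378 to 134433351, plus strand) gave 227, 260 and 190 CPM in the CTL libraries, and 256, 175 and 176 CPM in those of Nelfb-/- cells. Nelfb-/- replicate 1 lay with the higher CTL libraries and the other two lay just below the lowest. The fitted log2 fold change stood at -0.17 (SE 0.21, 95% interval -0.68 to 0.33, limma, adjusted p = 0.61), an interval that leaves out a fall of 2-fold. Leaving out single libraries moved it between -0.35 (without Nelfb-/- replicate 1, adjusted p = 0.19) and -0.064 (without CTL replicate 2, adjusted p = 0.91), and with both Nelfb-/- replicate 1 and CTL replicate 3 left out, a choice made after the data were seen, it was -0.47 (adjusted p = 0.0062), under the fold limit.

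Adipor2 (ENSMUSG00000030168, chromosome 6 from 119353150 to 119417704, minus strand) was the member with the highest group mean in both groups, per kb of exon as well as in CPM. It gave 999, 974 and 591 CPM in the CTL libraries, and 634, 662 and 591 CPM in those of Nelfb-/- cells. CTL replicate 3 lay at the level of the Nelfb-/- libraries, and the other CTL libraries lay above them all. The fitted log2 fold change stood at -0.40 (SE 0.25, 95% interval -1.01 to 0.20, limma, adjusted p = 0.32). With CTL replicate 3 left out it was -0.65 (adjusted p = 0.039), still under 2-fold.

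Adiponectin itself (Adipoq) likewise had CTL replicate 3 at the level of the Nelfb-/- libraries. It gave 1768, 1857 and 698 CPM in the CTL libraries, and 488, 802 and 630 CPM in those of Nelfb-/- cells. The other CTL libraries lay above them all. The fitted log2 fold change stood at -1.07 (SE 0.43, limma, adjusted p = 0.14). Leaving out CTL replicate 3 took Adipoq past the threshold (-1.53, adjusted p = 0.016), and leaving out Nelfb-/- replicate 1 did not (-0.89, adjusted p = 0.23). Of 9 tested genes for adiponectin and its C1q/TNF relatives, 1 passed downwards, C1qtnf12 (adipolin, -1.64, adjusted p = 0.027), and 1 upwards, C1qtnf2 (2.03, adjusted p = 0.021), with a median of 0.58. Without CTL replicate 3 the counts were 3 downwards and 2 upwards. Without CTL replicate 1, CTL replicate 2 or Nelfb-/- replicate 3 they were 0 and 0. Over all genes tested, 3.64% passed downwards and 7.58% upwards, with a median of 0.068, and no list is called particular from its count.

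Among 5 tested genes that fold or bind adiponectin, 1 passed downwards, Gstk1 (DsbA-L, a chaperone of adiponectin assembly), which gave 12.8, 10.6 and 8.40 CPM in the CTL libraries, and 5.03, 4.25 and 4.28 CPM in those of Nelfb-/- cells (-1.20, SE 0.22, limma, adjusted p = 0.018). The median of this group was -0.11 and took either sign when single libraries were left out (-0.46 to 0.17). Cdh13, the T-cadherin that binds adiponectin at the cell surface, lay at a log2 change of -0.11 (limma, adjusted p = 0.88), which ran from -0.46 to 0.38 when each library was left out. Ero1l, an oxidase of the endoplasmic reticulum that promotes the release of adiponectin, gave 280, 329 and 2974 CPM in the CTL libraries, and 211, 325 and 279 CPM in those of Nelfb-/- cells. Its value in CTL replicate 3 alone lay far above the other libraries.

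Downstream of the receptors, 13 genes were tested and 1 passed upwards, 0 downwards, with a median of -0.15. Over all genes tested 7.58% passed upwards, and nothing is read from the count. The gene past the threshold was Camkk2, a kinase that activates AMP-activated kinase, at 24.8, 24.4 and 23.9 CPM in the CTL libraries and 48.5, 51.8 and 57.3 CPM in those of Nelfb-/- cells. Both groups of Camkk2 were tight and lay well apart (1.10, SE 0.13, limma, adjusted p = 0.0056). The adaptors of the receptors had log2 fold changes of 0.45 for Appl1 (adjusted p = 0.067) and 0.036 for Appl2 (adjusted p = 0.97), and that of Appl2 ran from -0.45 to 0.38 when each library was left out. Ppara, the nuclear receptor tied to Adipor2, was measured at 7.34 to 11.7 CPM in CTL and at 2.99 to 6.11 CPM in Nelfb-/- cells without overlap, at -1.10 (SE 0.32, limma, adjusted p = 0.067).

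**Figure D3:**
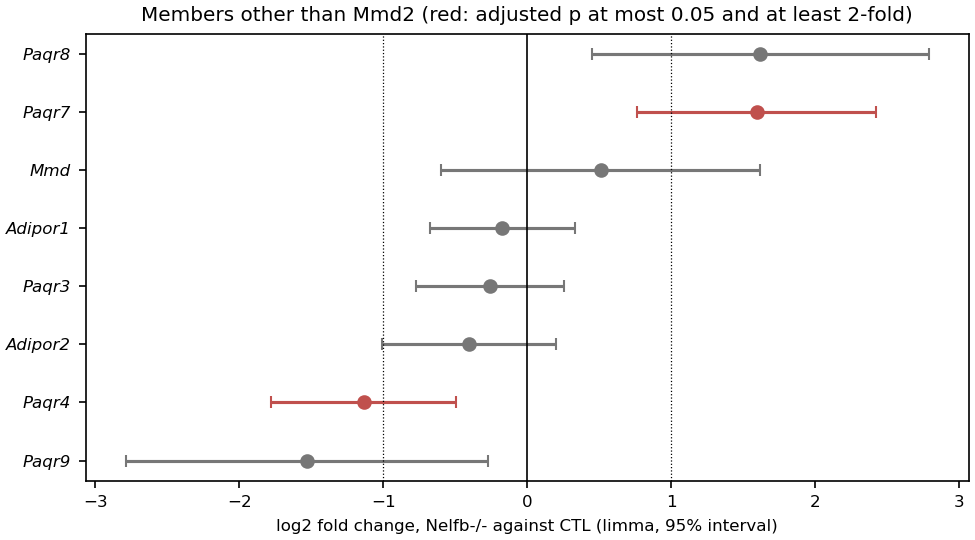
Log2 fold change of Nelfb-/- against CTL with its 95% interval (limma, 3 libraries a group) for the 8 members other than Mmd2. Red marks the members past the threshold, Paqr4 at -1.14 and Paqr7 at 1.59, and dotted lines mark a 2-fold change. Paqr8 and Paqr9 have intervals that leave out 0 but adjusted p above 0.05.

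Of the members other than Mmd2 known for roles at the Golgi (Mmd, Paqr3 and Paqr4), Paqr4 alone passed the threshold. Paqr4 (ENSMUSG00000023909, chromosome 17 from 23736186 to 23740867, minus strand) gave 21.8, 19.1 and 18.0 CPM in the CTL libraries, and 6.03, 11.6 and 10.02 CPM in those of Nelfb-/- cells. The groups lay apart, with Nelfb-/- replicate 1 the lowest. The group means were 19.6 ± 1.95 and 9.21 ± 2.86 CPM (SD, n = 3), and the log2 fold change came to -1.14 (SE 0.27, limma, adjusted p = 0.036). The call of Paqr4 held in 1 of 6 fits that left out a library, the fit without CTL replicate 3. Without Nelfb-/- replicate 1 the fold was under the limit (-0.86, adjusted p = 0.026), and without CTL replicate 1, CTL replicate 2, Nelfb-/- replicate 2 or Nelfb-/- replicate 3 the log2 fold changes were -1.06, -1.15, -1.33 and -1.22 and the adjusted p was 0.13, 0.12, 0.052 and 0.10. Paqr4 shares 550 bases with Pkmyt1 on the opposite strand, whose groups overlapped (-0.42, limma, adjusted p = 0.61).

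Paqr3 (ENSMUSG00000055725, chromosome 5 from 97082329 to 97111596, minus strand) was low in all libraries, at 4.26, 5.09 and 5.64 CPM in the CTL libraries and 3.79, 4.40 and 4.28 CPM in those of Nelfb-/- cells. The groups overlapped (log2 fold change -0.26, SE 0.22, 95% interval -0.77 to 0.26, limma, adjusted p = 0.45). Paqr3 shares 9539 bases with Bmp2k on the opposite strand, whose level lay higher in Nelfb-/- cells without overlap (0.48, limma, adjusted p = 0.15). Whether the counting used strand is not given in the sources used here, so reads that Paqr3 or Paqr4 share with these genes cannot be told apart. Mmd and Gm45716 lie on the same strand, so strand would not separate their reads. The values of Paqr3, Paqr4 and Mmd carry these limits.

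Genes that work with these Golgi proteins were counted in lists. Among 7 tested genes of the SREBP cleavage machinery 0 passed with limma in either direction (median 0.20). Scap, which Paqr3 anchors, was measured at 45.7 to 52.6 CPM in CTL and at 63.9 to 70.1 CPM in Nelfb-/- cells, a step without overlap of 0.45 (SE 0.12, limma, adjusted p = 0.053). Of 17 tested genes for Ras proteins, their exchange factors and the kinases downstream, 1 passed downwards and 1 upwards (median 0.10), near the 11.2% of all genes tested that passed in either direction. This median also took either sign, from -0.14 to 0.12 when single libraries were left out and -0.13 with quantile normalization. The gene that fell was Rasgrf1, an exchange factor for Ras, which was at 0 in all Nelfb-/- libraries (at least 12.9-fold lower, against the floor of 3 reads a library), and the one that rose was Rasgrp3 (1.75, limma, adjusted p = 0.016).

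The membrane progestin receptors did not share a direction: Paqr7 rose, while Paqr8 lay higher and Paqr9 lower without passing the threshold. Paqr7, the alpha form (ENSMUSG00000037348, chromosome 4 from 134496697 to 134510235, plus strand) gave 3.70, 2.80 and 6.80 CPM in the CTL libraries, and 11.2, 12.1 and 14.6 CPM in those of Nelfb-/- cells. The groups lay apart, with CTL replicate 3 the nearest to the Nelfb-/- libraries. The group means were 4.43 ± 2.10 and 12.6 ± 1.77 CPM (SD, n = 3), and the log2 fold change came to 1.59 (SE 0.35, limma, adjusted p = 0.029). Without CTL replicate 3 this was 1.95 (adjusted p = 0.0075) and without Nelfb-/- replicate 1 it was 1.68 (adjusted p = 0.044). The call was lost without CTL replicate 1, CTL replicate 2, Nelfb-/- replicate 2 or Nelfb-/- replicate 3 (limma, adjusted p = 0.10, 0.086, 0.084 and 0.12), at log2 fold changes of 1.32 to 1.62.

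Paqr8, the beta form (ENSMUSG00000025931, chromosome 1 from 20890606 to 20939650, plus strand) likewise lay higher in Nelfb-/- cells. It gave 1.85, 2.33 and 6.05 CPM in the CTL libraries, and 6.35, 11.5 and 10.7 CPM in those of Nelfb-/- cells. The groups lay apart only just, since CTL replicate 3 was close to Nelfb-/- replicate 1. The fitted log2 fold change stood at 1.62 (SE 0.49, 95% interval 0.45 to 2.79, limma, adjusted p = 0.071), past the fold limit but not the limit on p. With CTL replicate 3 left out it was 2.13 (adjusted p = 0.013). At both Paqr7 and Paqr8 the CTL library with the highest value, replicate 3, was also that with the highest sum of fibroblast markers (11940 CPM, against 2626 and 3104 CPM in the other two). Nelfb-/- replicate 1 had a lower sum (6413 CPM) than CTL replicate 3 but higher values of both genes. The part of fibroblasts in these values was not tested.

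Paqr9, the epsilon form (ENSMUSG00000064225, chromosome 9 from 95559657 to 95568023, plus strand) lay the other way. It gave 49.1, 42.0 and 30.8 CPM in the CTL libraries, and 5.83, 23.7 and 19.0 CPM in those of Nelfb-/- cells. All Nelfb-/- libraries lay below all CTL libraries, with replicate 1 far below the other two. The fitted log2 fold change stood at -1.53 (SE 0.53, 95% interval -2.79 to -0.27, limma, adjusted p = 0.099). Without Nelfb-/- replicate 1 it was -0.91 (adjusted p = 0.052). With both CTL replicate 3 and Nelfb-/- replicate 1 left out it was -1.10 (adjusted p = 0.0010) and past the threshold. These 3 progestin receptors have a structural feature in common, a coding sequence in 1 exon, and the only exon of Paqr9 spans its 8.367 kb.

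Per kb of exon, the summed level of Paqr7, Paqr8 and Paqr9 was 7.07, 6.11 and 6.38 CPM per kb in CTL and 4.48, 7.77 and 7.65 CPM per kb in Nelfb-/- replicates 1, 2 and 3. The sums overlapped, but their makeup did not. Paqr9 gave 83.0%, 82.3% and 57.7% of this sum in CTL and 15.6%, 36.4% and 29.7% in Nelfb-/- cells. Paqr9 was thus the largest of the 3 per kb in every CTL library. In Nelfb-/- replicates 1 and 3 Paqr7 was the largest, and in replicate 2 Paqr7 and Paqr9 were level at 2.84 and 2.83 CPM per kb. This order rests on the exon lengths used, since in CPM Paqr9 lay above Paqr7 in Nelfb-/- replicates 2 and 3. Of 5 tested genes for other progesterone receptors and their relatives 0 passed with limma in either direction (median 0.018, from -0.20 to 0.15 when single libraries were left out), among them Pgrmc1, a heme-binding membrane protein, at 0.018 (SE 0.25, limma, adjusted p = 0.97).

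**Figure D4:**
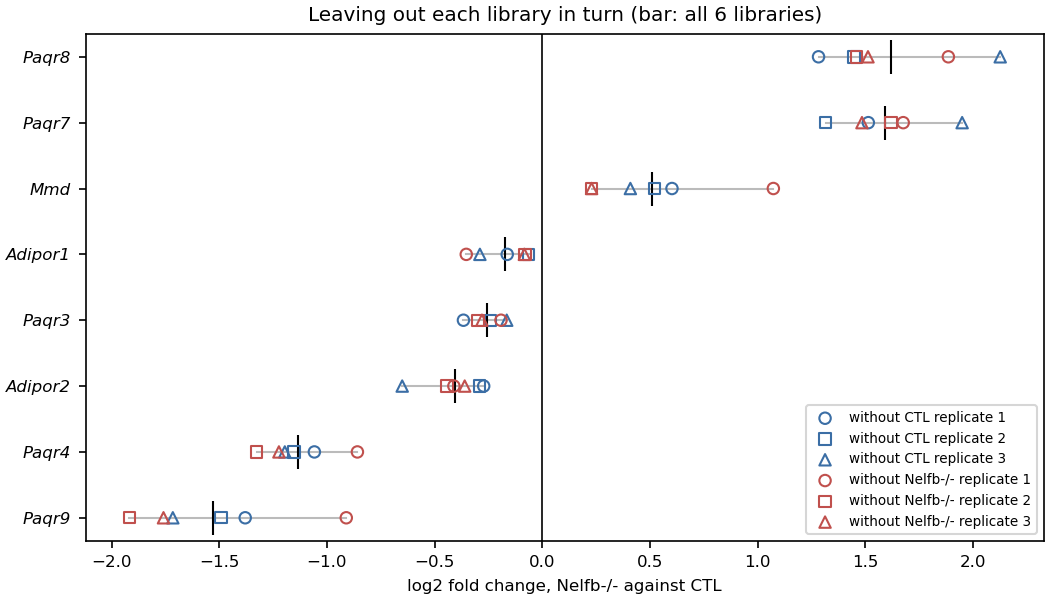
Log2 fold change of Nelfb-/- against CTL for the 8 members other than Mmd2 with all 6 libraries (black bar) and with each library left out in turn (open symbols, blue for a CTL and red for a Nelfb-/- library left out). No member changes sign. The widest shifts come without Nelfb-/- replicate 1 at Mmd and Paqr9 and without CTL replicate 3 at Paqr8.

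Levels were compared between members per kb of exon, which corrects for length. In CTL cells the order was Adipor2 (143 ± 38.2 CPM per kb, SD, n = 3), Mmd (59.2 ± 7.87), Adipor1 (45.0 ± 6.97), Paqr4 (7.42 ± 0.736), Paqr9 (4.86 ± 1.10), Mmd2 (2.44 ± 0.187), Paqr7 (1.04 ± 0.493), Paqr3 (0.660 ± 0.0920) and Paqr8 (0.622 ± 0.419). The ranges of Mmd and Adipor1 overlapped, although Mmd was the higher in every CTL library, and those of Paqr7, Paqr3 and Paqr8 overlapped with their neighbours in this order. The other neighbours lay apart. Mmd2 was therefore a minor member already in CTL cells, with 0.856% to 1.09% of the family's summed level per kb.

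In Nelfb-/- cells the order was Adipor2 (105 ± 6.01 CPM per kb, SD, n = 3), Mmd (95.4 ± 49.3), Adipor1 (40.2 ± 9.21), Paqr4 (3.48 ± 1.08), Paqr7 (2.97 ± 0.415), Paqr9 (1.93 ± 1.11), Paqr8 (1.74 ± 0.506), Paqr3 (0.549 ± 0.0430) and Mmd2 (0.0037 ± 0.0065). Mmd exceeded Adipor2 in 2 of 3 Nelfb-/- libraries and in 0 of 3 CTL libraries. The ranges of Adipor2, Mmd and Adipor1 overlapped with those of their neighbours in this order, as did those of Paqr4, Paqr7, Paqr9 and Paqr8. The family's summed level was 298, 291 and 204 CPM per kb in CTL and 203, 282 and 270 CPM per kb in Nelfb-/- replicates 1, 2 and 3, and CTL replicate 3 and Nelfb-/- replicate 1 were the low libraries of their groups. Adipor2 gave 48.5% to 56.1% of the sum in CTL and 52.3%, 39.3% and 36.6% in Nelfb-/- cells, whereas Mmd gave 20.5% to 25.1% in CTL and 19.0%, 43.9% and 45.9% in Nelfb-/- cells.

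**Figure D5:**
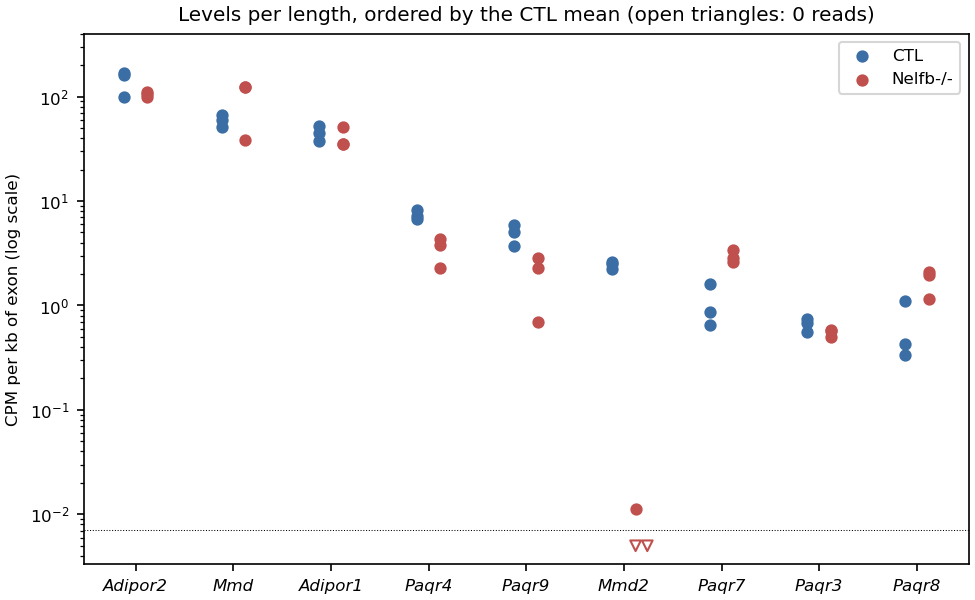
Level of the 9 members in CPM per kb of exon (log scale), ordered by the CTL mean, for 3 CTL (blue) and 3 Nelfb-/- libraries (red), with open triangles below the dotted line for 0 reads. Adipor2, Mmd and Adipor1 lie above the other members in both groups, and Mmd2 passes from the sixth place to the last.

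Since the adiponectin receptors and Paqr4 have been tied to ceramide, the enzymes and receptors of ceramide and sphingosine were also counted. Of 27 tested, 1 passed downwards and 2 upwards, with a median of 0.35. This is close to the 11.2% of all genes tested that passed in either direction, so the count is not a result about the list, and the genes are given singly. The gene that fell was Acer2, a ceramidase of the Golgi, at 130, 162 and 168 CPM in the CTL libraries and 46.1, 43.4 and 39.7 CPM in those of Nelfb-/- cells. Its groups lay far apart (-1.82, SE 0.15, limma, adjusted p = 0.0033). The genes that rose were S1pr1 (3.28, adjusted p = 0.0068) and S1pr2 (1.02, adjusted p = 0.013), both receptors of sphingosine 1-phosphate. S1pr1 is also expressed by endothelial and immune cells, and the macrophage markers rose in the same libraries, whose part in its value was not tested.

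Among the list genes named as past the threshold, Camkk2, Rasgrf1, Acer2 and S1pr1 passed it in all 6 fits that left out a library. Rasgrf1 was at 0 in all Nelfb-/- libraries and entered the test through its CTL values alone. Leaving out a Nelfb-/- library therefore could not move its log2 fold change (-5.31). C1qtnf2 and Gstk1 were lost without CTL replicate 1, CTL replicate 2, Nelfb-/- replicate 2 or Nelfb-/- replicate 3, where C1qtnf2 had log2 fold changes of 1.80 to 1.97 and Gstk1 of -1.19 to -1.06 (limma, adjusted p up to 0.10 and 0.085). C1qtnf12 was lost without CTL replicate 1, CTL replicate 2 or Nelfb-/- replicate 3, at log2 fold changes of -1.80, -1.74 and -1.75 (adjusted p = 0.066, 0.080 and 0.084). Rasgrp3 was lost without CTL replicate 1, Nelfb-/- replicate 2 or Nelfb-/- replicate 3, at 1.70, 1.83 and 1.81 (adjusted p = 0.063, 0.0504 and 0.070). S1pr2 was lost by its p without CTL replicate 1 or Nelfb-/- replicate 3 (1.01 and 1.05, adjusted p = 0.058 and 0.065), by its fold without Nelfb-/- replicate 1 (0.97) and by both without CTL replicate 2 (0.90, adjusted p = 0.053). Other settings ended a few of these calls too. S1pr2 fell under the fold limit with median-ratio scaling (0.96) and with quantile normalization (0.93), and C1qtnf12 and C1qtnf2 missed the limit on p in an analysis of variance without moderation (adjusted p = 0.0995 and 0.066).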

How the data were processed

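RNA-seq was performed by the authors on Nelfb-/- and CTL fibroblasts after 14 days in adipogenic medium. The submitters' processing notes name STAR 2.7 and Partek 9.0.20.0202, and the methods name mm10, DESeq2 for alignment, an analysis of variance in Partek and the removal of genes under 10 reads. How reads were counted is not given in the sources used here. The values the authors deposited are CPM, since each column summed to 1e+06 after removal of an offset of 0.0001. The value of 1 read was found from the steps among low values of each library, and gave the depths. Between 69.0% and 72.2% of values up to 20 reads were whole (within 0.02 reads), so reads were not taken as whole and no count test was run.

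Scaling each library to 22.3 M reads put its CPM on the scale of reads. Genes averaging 10 reads or more (0.448 CPM; 16252 genes) entered limma (3.58.1, R 4.3.3) as log2(value + 1), with an abundance trend and adjustment by Benjamini and Hochberg. Fold changes on this scale understate changes of low genes. The threshold was an adjusted p of at most 0.05 and 2-fold. The scripts were tested on simulated data. The smallest p of an exact permutation test, two-sided, is 0.1 with 3 libraries a group. Intervals and floors cover the spread between these libraries or counting error only.

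Positions are those of the table (GRCm38). Of 17551 genes matched by name to GENCODE vM21, 98.9% had the same start and end, and exon lengths and Ensembl IDs come from there. Sequences and start sites are from RefSeq (GRCm38.p6).

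Members and lists were chosen with earlier results of these data known, and the lists were written from general knowledge. Named are all members, genes that overlap them or lie within 250 kb of Mmd2, the 5 genes most like Mmd2, list genes past the threshold (markers by counts) and Adipoq, Cdh13, Appl1, Appl2, Pgrmc1 and Scap, apart from 1 gene that is not reported here. Ppara and Ero1l were named after their values were seen. In all, 14 alternatives were planned and 1 was added after the data were seen.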

Additional observations from a re-analysis of the deposited data

How the results depend on the processing

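No member changed sign under any of the 15 other settings tried. Genes past the threshold numbered 592 downwards and 1232 upwards. An analysis of variance without moderation gave 246 and 438, and members other than Mmd2 past the threshold then went from 2 to 0. Leaving out each library in turn gave 144 to 771 genes downwards, 303 to 1683 upwards and 0 to 3 members (0 without CTL replicate 1, CTL replicate 2, Nelfb-/- replicate 2 or Nelfb-/- replicate 3). Without both CTL replicate 3 and Nelfb-/- replicate 1, 1518 genes passed downwards and 2857 upwards; the cause was not tested. Quantile normalization gave 834 downwards and 1014 upwards and a median log2 fold change over all genes of -0.068, in place of 0.068. Same-numbered libraries of the groups deviated together in pairs 1 and 3 (r = 0.52 and 0.52) but not in pair 2 (r = -0.39). CTL replicate 3 and Nelfb-/- replicate 2 also deviated together (r = 0.54), so these values cannot decide whether the numbers pair the libraries. With a replicate block 670 genes passed downwards and 1505 upwards, and 3 members passed, with Paqr8 added (adjusted p = 0.030). Over the 15 settings, the call of Paqr4 was lost in 7 and that of Paqr7 in 5, Paqr8 was gained in 3, and Mmd and Paqr9 in 1 each. The fitted log2 difference of Mmd2 depends on the pseudocount, at -8.53 with 0.5 reads and -5.73 with 5 reads, and is not a measure of its fall. Depth limits Mmd2 in Nelfb-/- cells to the floor.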
